A study of Mus musculus with 10 samples.

Results

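The genes described here drive or carry out cell division: 37 genes of mitotic entry, spindle assembly, chromosome segregation and cytokinesis, chosen by name and role from the 33006 genes of the RNA count table. The choice was made with earlier results of these data known. All 37 were in the table and all 37 passed the filter on low counts. Polyadenylated RNA was sequenced from E14 cells, a mouse embryonic stem cell line, in which the histone chaperone NPM1 had been made degradable (NPM1AID). Per the study's design text, the cells were held in G1 and collected 12 h after release, with auxin (2 libraries) or without auxin (2 libraries). Every library, those without auxin included, came from cells grown with LIF and the inhibitors PD0325901 (against MEK, 1 µM) and CHIR99021 (against GSK3, 3 µM), and the file headers name clone 38 for all of them. H3K27me3 peaks came from 1 ChIP-seq sample without auxin at 6 h and 1 CUT&RUN control sample at 12 h, in the same NPM1AID cells. Auxin triggers destruction of the tagged protein. RNA counts do not show how far the protein was lost. Cells without the degron were not analysed here, so the loss of NPM1 and the presence of auxin cannot be told apart.

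A cell enters mitosis when cyclin A and cyclin B activate the kinase Cdk1, with help from the Cdc25 phosphatases and the Polo and Aurora kinases. The spindle checkpoint then holds the anaphase-promoting complex, a ubiquitin ligase, until every chromosome is attached, after which securin and cyclin B are destroyed and the cell divides. Most of these genes are transcribed in a wave that begins in S phase and peaks in G2 and mitosis. MuvB complexes act on this wave through a promoter element called the CHR (cell cycle genes homology region), and the factor NF-Y acts through nearby CCAAT boxes. Embryonic stem cells have a short G1 and divide fast.

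Promoter sequences are shown because most promoters of these genes hold these elements. Whether the elements bear on the fold changes was not tested. RefSeq promoter windows (GRCm38.p6, the assembly also called mm10; 250 bases before the gene start and 50 from it) matched 31 of the 37 genes. The genes without an entry are Ccna2, Aurkb, Incenp, Tpx2, Kif20a and Cdc25c. The windows below belong to the 4 genes with the most negative fold changes that hold both elements, and to Pttg1, which moved the other way. Espl1 encodes separase (chr15:102296043-102296342, plus strand), Cdca8 encodes borealin (chr4:124936868-124937167, minus strand), and Mki67 encodes the proliferation marker Ki-67 (chr7:135716330-135716629, minus strand). Bub1b encodes the checkpoint protein BubR1 (chr2:118597961-118598260, plus strand) and Pttg1 encodes securin (chr11:43425932-43426231, minus strand). Each runs 5′ to 3′ along its gene. Capitals mark TTTGAA or TTCGAA (CHR) and CCAAT, searched on both strands, so TTCAAA and ATTGG are their reverse forms.
Espl1: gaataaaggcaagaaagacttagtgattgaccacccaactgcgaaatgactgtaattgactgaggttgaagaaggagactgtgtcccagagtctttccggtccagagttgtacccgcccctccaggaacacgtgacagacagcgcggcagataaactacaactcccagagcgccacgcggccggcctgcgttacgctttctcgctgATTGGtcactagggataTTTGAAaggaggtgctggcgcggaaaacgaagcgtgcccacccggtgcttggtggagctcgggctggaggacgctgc
Cdca8: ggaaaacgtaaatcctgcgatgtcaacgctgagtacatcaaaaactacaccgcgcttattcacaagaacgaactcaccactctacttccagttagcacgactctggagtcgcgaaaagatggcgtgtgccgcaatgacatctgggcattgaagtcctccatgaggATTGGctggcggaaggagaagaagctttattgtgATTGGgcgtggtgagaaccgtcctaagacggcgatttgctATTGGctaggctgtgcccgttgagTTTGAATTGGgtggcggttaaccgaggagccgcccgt
Mki67: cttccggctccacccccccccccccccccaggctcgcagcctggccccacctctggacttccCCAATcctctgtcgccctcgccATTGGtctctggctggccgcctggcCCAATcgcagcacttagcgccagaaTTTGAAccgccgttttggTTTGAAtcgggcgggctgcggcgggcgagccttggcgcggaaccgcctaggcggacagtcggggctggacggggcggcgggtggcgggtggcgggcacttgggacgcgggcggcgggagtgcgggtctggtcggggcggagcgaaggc
Bub1b: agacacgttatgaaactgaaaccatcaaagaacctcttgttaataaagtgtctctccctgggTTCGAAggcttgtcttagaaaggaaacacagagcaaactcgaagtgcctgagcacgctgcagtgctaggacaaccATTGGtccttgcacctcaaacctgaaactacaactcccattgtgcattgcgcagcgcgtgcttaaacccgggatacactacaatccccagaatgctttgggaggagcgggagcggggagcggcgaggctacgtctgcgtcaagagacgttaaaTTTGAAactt
Pttg1: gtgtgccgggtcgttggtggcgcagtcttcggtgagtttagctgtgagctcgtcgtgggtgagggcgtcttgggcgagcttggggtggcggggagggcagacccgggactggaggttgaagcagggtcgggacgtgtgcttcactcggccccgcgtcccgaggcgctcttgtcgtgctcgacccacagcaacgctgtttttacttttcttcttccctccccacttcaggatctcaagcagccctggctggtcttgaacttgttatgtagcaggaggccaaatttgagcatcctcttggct
In the Cdca8 window the CHR motif and the last CCAAT box share 1 base. The RefSeq start of Cdca8 lay 2394 bases from the 5′ end in the count table's annotation, and that of Pttg1 lay 270 bases from it. Both windows lie inside the gene as placed by that annotation. The bases before its 5′ end were therefore not searched for Cdca8 or Pttg1.

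A CHR motif stood in 23 of the 31 windows (74.2%), against 19.4% of all 27025 RefSeq promoter windows of the same length. All 23 still held one between 100 bases before the start and 50 after it, against 8.64% of all windows. A CCAAT box stood in 24 of the 31 (77.4%, against 37.9%), and 15 held 2 or more (48.4%, against 12.1%). Both elements occurred together in 21 (67.7%, against 7.64%). Of all windows, 9876 belonged to genes that passed the filter on low counts. Among them the shares were 13.2% for a CHR motif, 39.1% for a CCAAT box, 15.1% for 2 or more and 5.74% for both elements. Of the 32 CHR matches, 23 began within 50 bases of the start on either side, and 26 were listed on the gene's own strand. TTCGAA reads the same on both strands, and its matches were always listed on the gene's own strand. Of the 58 CCAAT boxes, 39 began within the 100 bases before the start, 28 were on the gene's strand and 30 on the other. Ube2c, with 6 CCAAT boxes, and Top2a, with 6 CCAAT boxes and 4 CHR motifs, had the most matches. Neither element was found in the windows of Birc5, Mad2l1, Nuf2, Nusap1 or Pttg1. The Pttg1 window held no base before the 5′ end in the count table's annotation, so the promoter at that end was not searched. The RefSeq start of Mad2l1 lay 169 bases from the 5′ end in the count table's annotation. A match is a run of letters and no measured binding site.

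**Figure D1:**
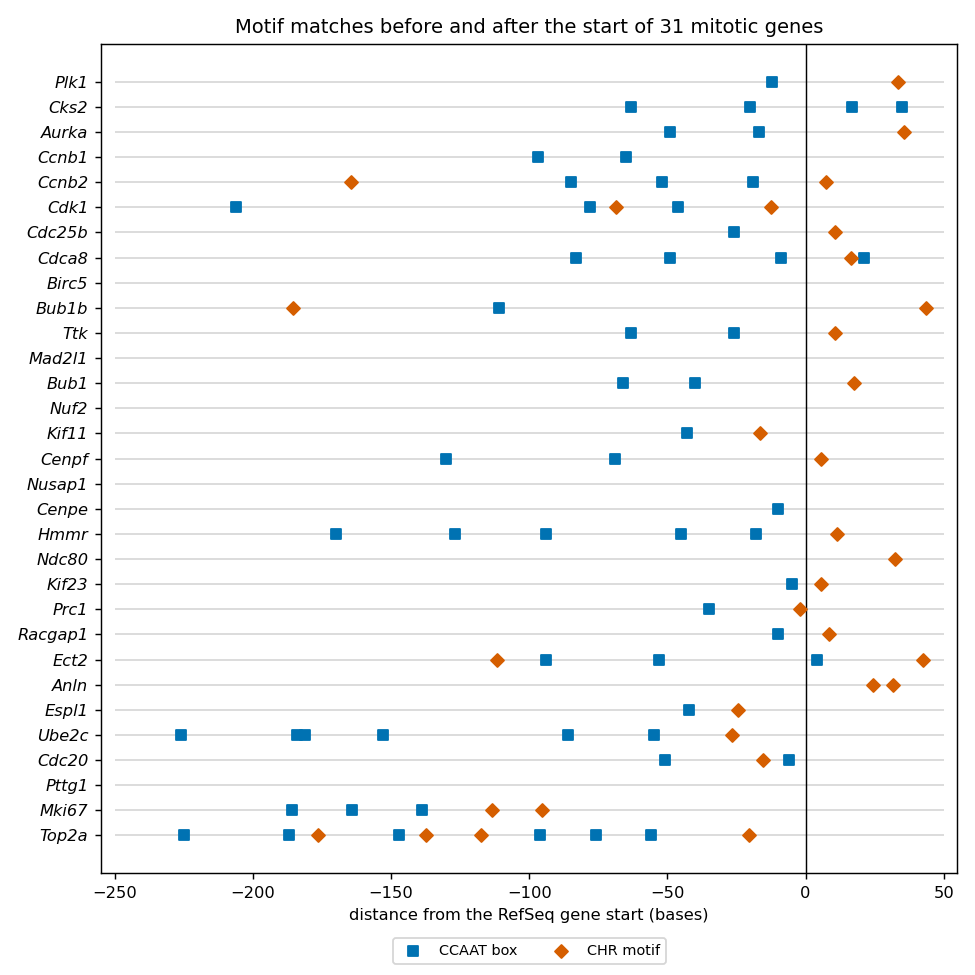
Positions of CHR motifs (diamonds) and CCAAT boxes (squares) in the promoter windows of 31 mitotic genes. The horizontal axis gives bases from the RefSeq gene start, genes run down by role, and most windows hold a CHR motif close to the start with CCAAT boxes before it.

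The libraries held 13353446 and 16046290 counts with auxin, and 14789851 and 15183126 without. Replicates differed by more than counting noise, with a chi-square per degree of freedom of 11.3 with auxin and 3.88 without. Markers of mouse embryonic stem cells were present in all libraries (10 of 10 tested), with 6 called lower and 2 higher. Among all genes tested, the shares called were 14.5% lower and 13% higher. Their summed level, per exon length, was 8199 and 8485 TPM with auxin and 8180 and 8032 TPM without. Within that sum, Lin28a was lower with auxin (log2 fold change −1.36, SE 0.06, edgeR adjusted p = 3.1e-07) and Nanog was higher (0.33, SE 0.05, edgeR adjusted p = 0.000535). Esrrb (−0.40), Tdgf1 (−0.40), Pou5f1 (−0.26), Zfp42 (−0.24) and Sox2 (−0.21) were also called lower, and Fgf4 higher (0.32). Dppa5a, which was not called, made up much of the sum, with 3337 and 3349 TPM with auxin and 3200 and 2990 TPM without. Markers of fibroblasts, which can serve as feeder cells, summed to 12.8 and 17.8 TPM with auxin and 8.43 and 10.2 TPM without, with 6 of 10 tested, 0 called lower and 2 higher. The genes called higher were Pdgfrb, with 4.06 and 7.36 TPM with auxin and 1.33 and 2.52 TPM without (log2 fold change 1.45, SE 0.28, edgeR adjusted p = 0.00313), and Pdgfra, with 1.57 and 1.36 TPM with auxin and 0.747 and 0.819 TPM without (log2 fold change 0.77, SE 0.24, edgeR adjusted p = 0.0349). Col1a1 had 1.20 and 1.22 TPM with auxin and 0.792 and 0.767 TPM without, and was not called (edgeR adjusted p = 0.143). Postn, Lum and Col3a1 were at or near 0 throughout, and the part of such cells in the results was not tested.

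Transcripts of most of the mitotic genes were lower with auxin, with log2 fold changes from −0.41 to −0.18 among the genes called lower. The edgeR quasi-likelihood test, adjusted over all 13522 genes tested, called 29 of the 37 genes lower (78.4%), 1 higher and 7 neither way. Over all genes tested, 14.5% were called lower and 13% higher. The median log2 fold change of the 37 was −0.29, a 1.22-fold decrease, against 0.01 over all genes. The values ran from −0.41 for Nuf2 to 0.31 for Pttg1, and 35 of the 37 were negative. In bulk RNA, fewer cells in G2 or mitosis and less of each transcript per cell cannot be told apart.

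The libraries separated by group for most of these genes. Levels here are CPM, the count of a gene scaled to a common library size with TMM factors. Both auxin libraries lay below both libraries without auxin for 32 of the 37 genes, against 31.8% of all genes tested. They lay above for Cdc25b and Pttg1, against 33% of all genes, and the groups overlapped for Bub1, Hmmr and Anln. Relative to the mean of the libraries without auxin, the median log2 level of the 37 genes was −0.28 in auxin library 1 and −0.28 in auxin library 2. It was 0.01 and −0.01 in the libraries without auxin. The 37 genes together took 0.534% and 0.554% of all counts with auxin, against 0.620% and 0.618% without.

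**Figure D2:**
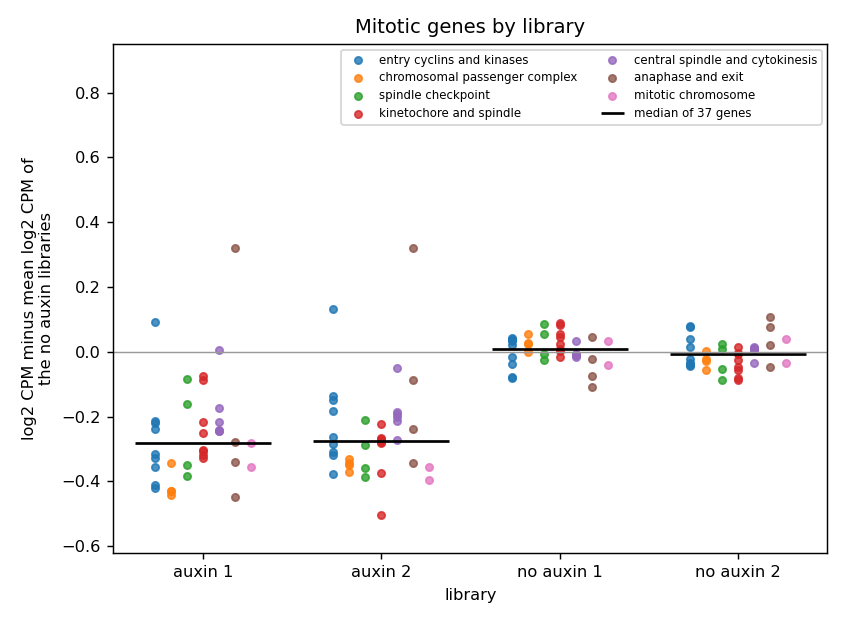
Level of each of the 37 genes in each library (log2 CPM minus the mean log2 CPM of the libraries without auxin), coloured by role, with the median as a bar. The medians of the auxin libraries lie at −0.28, and the gene above 0.3 in both is Pttg1.

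The size of the decrease depended on the scaling. With library totals and no TMM factors, the median of the 37 genes was −0.19 and that of all genes 0.11, and 20 of the 37 were called lower. All genes then split into 988 lower and 2735 higher calls, against 1964 lower and 1759 higher with TMM. The median of the 37 minus that of all genes was −0.30 with TMM. A change of scaling shifts all genes by nearly the same amount, so this difference cannot test the scaling.

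**Figure D3:**
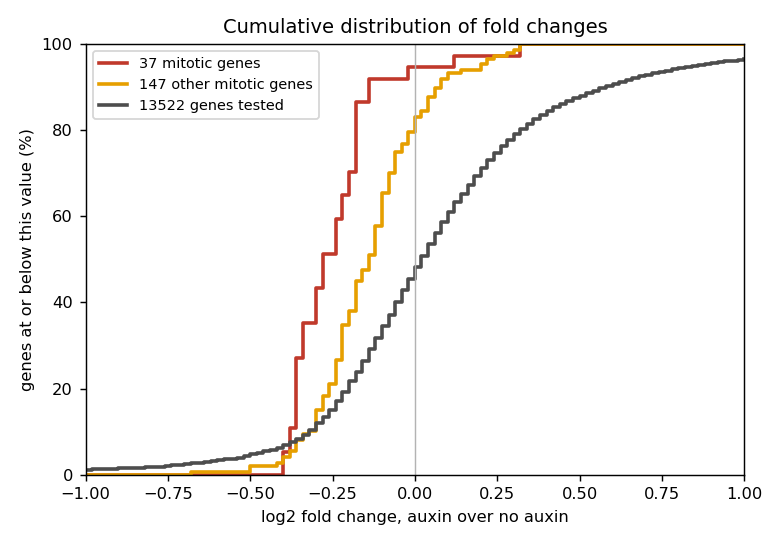
Cumulative share of genes (percent) by log2 fold change, auxin over no auxin, for the 37 mitotic genes, 147 other mitotic genes and all 13522 genes tested. The curve of the 37 genes lies left of the others around its median of −0.29, and few of its genes reach below −0.40.

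Of 9 genes of mitotic entry, 7 fell: the cyclins Ccna2, Ccnb1 and Ccnb2, the kinases Cdk1, Plk1 and Aurka, and the subunit Cks2. The median log2 fold change of the 9 was −0.31. Plk1, the Polo kinase that promotes entry and spindle assembly (chromosome 7, 122159437 to 122169875, mm10), stood at 152 and 162 CPM with auxin and 197 and 208 CPM without. Its log2 fold change was −0.36 (SE 0.06, edgeR adjusted p = 0.000920), and the groups did not overlap. Cks2, a small subunit that docks Cdk1 to its substrates, had 38.5 and 41.5 CPM with auxin, against 50.9 and 52.0 CPM without (log2 fold change −0.36, SE 0.08, edgeR adjusted p = 0.00541). Ccna2, the cyclin A of S phase and G2, had 238 and 228 CPM with auxin and 300.4 and 291 CPM without (log2 fold change −0.35, SE 0.05, edgeR adjusted p = 0.000619). All 3 genes were lower by between 21.3% and 22.3%. Aurka, the centrosomal Aurora kinase, and Ccnb1, the main mitotic cyclin, had log2 fold changes of −0.31 each. Ccnb2, a second B-type cyclin (−0.20, edgeR adjusted p = 0.0448), and Cdk1, the mitotic kinase itself (−0.18, edgeR adjusted p = 0.0378), moved least among the called genes of the group.

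The calls of Ccnb2 and Cdk1 rested on few libraries. Ccnb2 was not called without no auxin replicate 2 (edgeR adjusted p = 0.327), auxin replicate 1 (0.0832) or auxin replicate 2 (0.0577), and Cdk1 was not called without no auxin replicate 1 (0.219) or auxin replicate 1 (0.179). The Cdc25 phosphatases, which remove the inhibitory phosphates from Cdk1, were not called. Cdc25b had 31.3 and 32.2 CPM with auxin, against 27.7 and 31.1 CPM without (log2 fold change 0.11, SE 0.09, edgeR adjusted p = 0.402). Cdc25c had 16.1 and 16.9 CPM with auxin, against 19.2 and 18.2 CPM without (log2 fold change −0.18, SE 0.11, edgeR adjusted p = 0.235). These genes had 218 to 542 counts in the auxin libraries and 269 to 458 in the libraries without auxin, and their standard errors are among the widest.

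The chromosomal passenger complex, which corrects faulty chromosome attachments and later directs cytokinesis, fell as a whole. All 4 subunits were called lower, with log2 fold changes from −0.41 to −0.35. Incenp, its scaffold (chromosome 19, 9872297 to 9899533, mm10), had 167 and 176 CPM with auxin and 236 and 219 CPM without (log2 fold change −0.41, SE 0.06, edgeR adjusted p = 0.000486). Cdca8 (borealin) had 99.7 and 106 CPM with auxin, against 137 and 132 CPM without (log2 fold change −0.39, SE 0.06, edgeR adjusted p = 0.000878). Aurkb, its kinase, had 72.8 and 77.9 CPM with auxin, against 97.9 and 98.2 CPM without (log2 fold change −0.38, SE 0.06, edgeR adjusted p = 0.00147). Birc5 (survivin), the subunit that binds centromeric chromatin, had a log2 fold change of −0.35. No subunit had overlapping groups, and the 4 calls held in all 10 alternatives tried.

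Of 4 spindle checkpoint genes, 3 fell. Bub1b (chromosome 2, 118598211 to 118641591, mm10), part of the complex that inhibits the anaphase-promoting complex, had 179 and 182 CPM with auxin and 229 and 238 CPM without (log2 fold change −0.37, SE 0.05, edgeR adjusted p = 0.000449). Ttk (Mps1), the kinase at the head of the checkpoint, had 62.6 and 61.0 CPM with auxin and 79.2 and 80.1 CPM without (log2 fold change −0.37, SE 0.06, edgeR adjusted p = 0.00188). Neither gene had overlapping groups. Mad2l1, whose protein binds and holds Cdc20, had 77.0 and 70.5 CPM with auxin, against 89.4 and 82.9 CPM without (log2 fold change −0.23, SE 0.07, edgeR adjusted p = 0.0351). Its call was lost without no auxin replicate 1 (edgeR adjusted p = 0.223) and without auxin replicate 2 (0.221). Bub1, the kinase that recruits checkpoint proteins to kinetochores, had 103 and 94.2 CPM with auxin, against 116 and 103 CPM without, and was not called (log2 fold change −0.15, SE 0.07, edgeR adjusted p = 0.150). Its groups overlapped by a narrow margin, and without auxin replicate 1 it was called lower (edgeR adjusted p = 0.0440).

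Among 8 kinetochore and spindle genes, 6 fell and 2 were not called. Nuf2 (chromosome 1, 169497934 to 169531464, mm10), a subunit of the Ndc80 complex that grips microtubules, had 31.0 and 27.3 CPM with auxin and 40.3 and 37.2 CPM without (log2 fold change −0.41, SE 0.09, edgeR adjusted p = 0.00720). Its partner Ndc80 had 50.6 and 45.6 CPM with auxin, against 54.9 and 51.6 CPM without, and was not called (log2 fold change −0.15, SE 0.08, edgeR adjusted p = 0.187). The difference between these partners was not tested. Kif11 (Eg5), the motor that pushes spindle poles apart, had 144 and 139.6 CPM with auxin and 192 and 171 CPM without (log2 fold change −0.35, SE 0.06, edgeR adjusted p = 0.00205). Tpx2, which activates Aurora A on the spindle, had 197 and 201 CPM with auxin and 245 and 244 CPM without (log2 fold change −0.29, SE 0.05, edgeR adjusted p = 0.00141). Cenpf (−0.29), Nusap1 (−0.26) and the kinetochore kinesin Cenpe (−0.25) were also called lower. Nusap1, a microtubule-bundling protein, lost its call without no auxin replicate 1 (edgeR adjusted p = 0.0947) and without auxin replicate 2 (0.0516). Hmmr, a spindle-associated hyaluronan receptor, had 123 and 108 CPM with auxin, against 139 and 123 CPM without, and was not called (log2 fold change −0.18, SE 0.08, edgeR adjusted p = 0.101). Its groups overlapped, and it was called lower without no auxin replicate 2 (edgeR adjusted p = 0.0257) and without auxin replicate 1 (0.00373).

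The genes of the central spindle and cytokinesis showed smaller values, with a median log2 fold change of −0.21, and 5 of 6 were called lower. Kif20a, a kinesin that carries the passenger complex to the central spindle, had 284 and 278 CPM with auxin and 333 and 338 CPM without (log2 fold change −0.26, SE 0.05, edgeR adjusted p = 0.00247). Kif23, the kinesin of the centralspindlin complex, had 83.8 and 85.3 CPM with auxin and 98.6 and 99.5 CPM without (log2 fold change −0.23, SE 0.06, edgeR adjusted p = 0.0160). Prc1, which bundles antiparallel microtubules at the midzone, had 127 and 132 CPM with auxin and 150.0 and 152 CPM without (log2 fold change −0.22, SE 0.05, edgeR adjusted p = 0.0124). None of the 3 had overlapping groups. Racgap1, the GTPase-activating subunit of centralspindlin (−0.20), and Ect2, the exchange factor that activates RhoA (−0.19), were lower as well. Anln (anillin), the scaffold of the contractile ring, was the exception, with 246 and 237 CPM with auxin and 243 and 247 CPM without (log2 fold change −0.02, SE 0.05, edgeR adjusted p = 0.785). Its sign turned with upper-quartile factors (0.01), with library totals (0.07) and without auxin replicate 2 (0.01). Anln was not a scarce transcript, with 3336 and 3986 counts with auxin and 3462 and 3636 without.

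Apart from Kif20a, the called genes of this group lost their call when 1 library was left out. Without no auxin replicate 1, the edgeR adjusted p was 0.0647 for Kif23, 0.183 for Ect2 and 0.0674 for Racgap1. Without no auxin replicate 2, it was 0.0683 for Kif23, 0.0592 for Prc1 and 0.0982 for Racgap1. Racgap1 was also lost without auxin replicate 1 (0.0613) and Ect2 without auxin replicate 2 (0.0903). Whether the passenger complex and the cytokinesis genes differ in their response was not tested.

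The genes of anaphase and mitotic exit went in different directions. Espl1 (separase), the protease that cuts cohesin (chromosome 15, 102296293 to 102324356, mm10), had 216 and 232 CPM with auxin and 289.8 and 299 CPM without (log2 fold change −0.39, SE 0.05, edgeR adjusted p = 0.000412). Pttg1 (securin), the inhibitor that holds separase until anaphase (chromosome 11, 43420250 to 43426251, mm10), was called higher, with 28.8 and 28.8 CPM with auxin and 21.4 and 24.9 CPM without. Its log2 fold change was 0.31 (SE 0.10, edgeR adjusted p = 0.0373). Neither gene had overlapping groups, and Pttg1 rested on 391 and 485 counts with auxin and 305 and 367 without. The call of Pttg1 was lost without no auxin replicate 1 (edgeR adjusted p = 0.261), auxin replicate 1 (0.0585) or auxin replicate 2 (0.0679), with log2 fold changes from 0.21 to 0.32. Ube2c, the ubiquitin-conjugating enzyme of the anaphase-promoting complex, had 167 and 179.8 CPM with auxin and 219 and 205 CPM without (log2 fold change −0.29, SE 0.06, edgeR adjusted p = 0.00392). Cdc20, the activator that the checkpoint restrains, had 222 and 254 CPM with auxin and 256 and 284 CPM without, and was not called (log2 fold change −0.18, SE 0.07, edgeR adjusted p = 0.0778). The groups of Cdc20 did not overlap, and it was called lower without no auxin replicate 1 (edgeR adjusted p = 0.0260) and without auxin replicate 2 (0.000847).

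Both genes of mitotic chromosomes fell. Mki67, whose protein coats mitotic chromosomes, had 249.5 and 243 CPM with auxin and 311 and 328 CPM without (log2 fold change −0.38, SE 0.05, edgeR adjusted p = 0.000402). Top2a, the topoisomerase that untangles sister chromatids (chromosome 11, 98992943 to 99024189, mm10), had 578 and 549 CPM with auxin and 719 and 686 CPM without (log2 fold change −0.32, SE 0.05, edgeR adjusted p = 0.000986). The groups did not overlap for either gene, and both calls held in all 10 alternatives. Top2a shares exon bases on its own strand with Gm23451, and how the counting treated fragments in that overlap makes its count less certain.

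**Figure D4:**
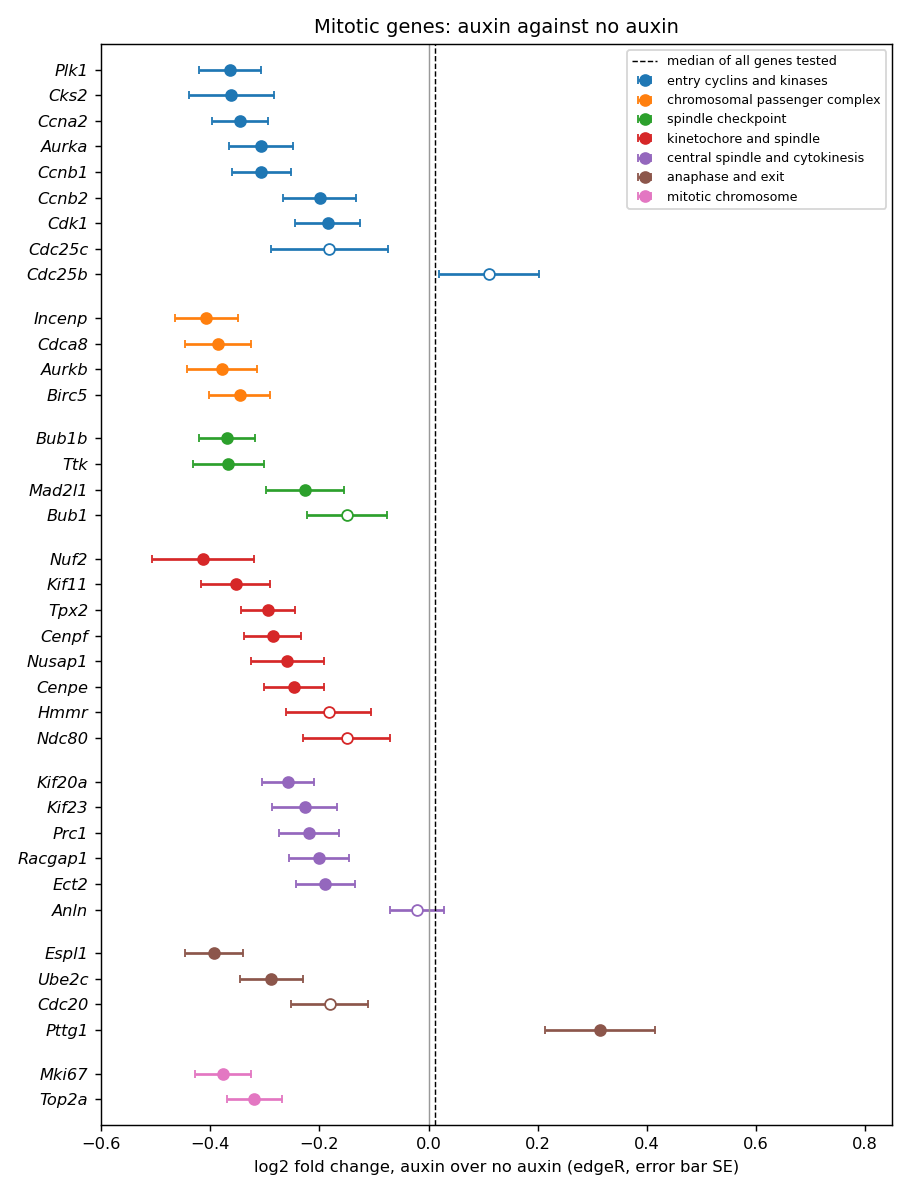
Log2 fold change of each of the 37 genes (auxin over no auxin, edgeR, error bars SE, n = 2 libraries a group), grouped by role. Filled points passed an adjusted p of 0.05, open points did not. Pttg1 at 0.31 and Cdc25b at 0.11 are the points right of 0, and the dashed line marks the median of all genes, 0.01.

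Levels between genes were compared as TPM, a share of all transcripts after division by exon length. The TPM scale carries no TMM factors and served here only to order the genes. Cdc20 was the most abundant, with 294 and 360.3 TPM with auxin and 316 and 364 TPM without, and its lowest library lay above every library of every other gene. Plk1, Kif20a, Ccna2 and Ube2c followed, with means over the 4 libraries between 182 and 200 TPM, and their ranges overlapped one another. The lowest were Pttg1 (36.9 ± 1.80 TPM with auxin and 27.3 ± 3.55 TPM without, SD, n = 2), Cdc25c and Cdc25b. Nuf2, with the most negative fold change, stood at 30.1 TPM with auxin and 36.7 TPM without, and Cdc25c at 21.8 TPM with auxin and 22.7 TPM without.

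**Figure D5:**
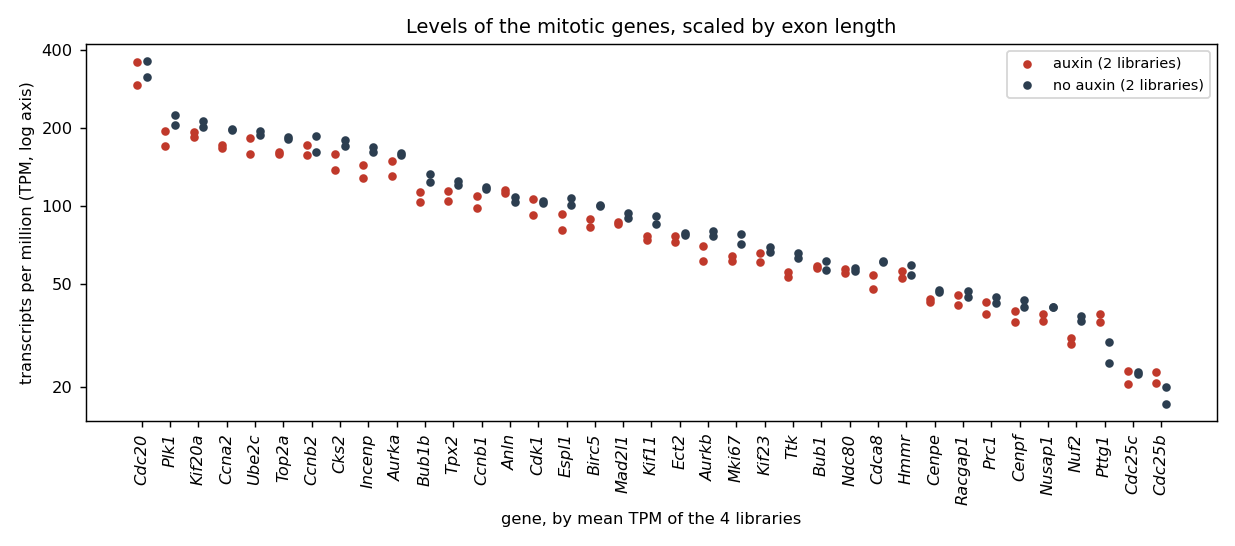
Level of each gene in every library (TPM, log axis), with auxin on the left of each pair and no auxin on the right, ordered by the mean of the 4 libraries. Cdc20 stands above the rest, and Pttg1 and Cdc25b are among the few genes whose auxin points lie higher.

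Fold changes are given here by promoter element as a description, with no test of a difference. The median log2 fold change was −0.23 for the 23 genes with a CHR motif in the window and −0.28 for the other matched genes. It was −0.29 for the 24 genes with a CCAAT box and −0.23 for the others. Nuf2, Birc5, Nusap1 and Mad2l1, whose windows held neither element, were called lower. The Pttg1 window held neither element as well, but it lay wholly past the 5′ end in the count table's annotation. It therefore does not describe the bases before that end. The RefSeq start of Mad2l1 lay 169 bases from its 5′ end in that annotation. Anln, which was not called, held 2 CHR motifs and no CCAAT box, and Cdc25b, also not called, held both elements.

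A wider list of 147 other mitotic genes had a median closer to 0 and more genes called lower than higher. The difference between the lists was not tested. Of these, 55 were called lower (37.4%, against 14.5% of all genes tested), 2 higher and 90 neither way, with a median log2 fold change of −0.14. Cohesin and condensin, the rings that hold sister chromatids and fold chromosomes, had 13 of 19 genes lower (68.4%), led by Cdca5 (sororin, which protects cohesin, log2 fold change −0.52) and Stag2 (−0.29), with Smc2 (−0.18) and Ncaph2 (−0.17) the called genes nearest 0. Stag2 lost its call without no auxin replicate 1 (edgeR adjusted p = 0.0540), Smc2 without no auxin replicate 2 (0.137), and Ncaph2 without no auxin replicate 1 (0.232) or replicate 2 (0.0653) or auxin replicate 1 (0.189). Other kinesins and spindle factors had 16 of 37 lower (43.2%), led by Kif20b (−0.41) and Kif22 (−0.38), with Cep192 (−0.20) and Kif18b (−0.19) nearest 0. Cep192 lost its call without no auxin replicate 2 (edgeR adjusted p = 0.117), and Kif18b without no auxin replicate 1 (0.0742) or replicate 2 (0.126) or auxin replicate 1 (0.286). Of 38 further kinetochore and checkpoint genes, 8 fell (21.1%, a share nearer to the 14.5% of all genes), led by Kntc1 (−0.41) and Casc5 (−0.38), and Zwint, a kinetochore protein, rose (0.21, edgeR adjusted p = 0.0145). Zwint lost its call without no auxin replicate 2 (edgeR adjusted p = 0.131). Sgol1 (shugoshin), which guards centromeric cohesin, was nearest 0 among the lower genes of that group (−0.23), a call lost without no auxin replicate 1 (edgeR adjusted p = 0.253) and without auxin replicate 2 (0.219). The anaphase-promoting complex and its regulators had 6 of 17 lower (35.3%), led by Anapc15 (−0.50) and Cdc26 (−0.37), with Anapc7 (−0.22) and Anapc5 (−0.21) nearest 0. Cdc26 lost its call without no auxin replicate 1 (edgeR adjusted p = 0.192) and without auxin replicate 1 (0.0785), and Anapc7 without no auxin replicate 2 (0.235), auxin replicate 1 (0.0562) or auxin replicate 2 (0.0617). Of 18 genes of entry and exit control, 5 fell (27.8%), led by Wee1, the kinase that restrains Cdk1 (−0.32), and Cks1b (−0.31), with the phosphatase Cdc25a (−0.19) and the cyclin Ccnf (−0.17) nearest 0. Wee1 lost its call without no auxin replicate 2 (edgeR adjusted p = 0.0571). Cdc25a lost its call without no auxin replicate 1 (edgeR adjusted p = 0.109) or replicate 2 (0.0878) and without auxin replicate 2 (0.163). Ccnf lost its call without no auxin replicate 1 (edgeR adjusted p = 0.0858) or replicate 2 (0.140) and without auxin replicate 1 (0.248).

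Of 18 genes for transcription control of G2 and M promoters, 7 fell (38.9%, against 14.5% of all genes tested), 1 rose and 10 were not called. E2f8, a repressor of the E2F family, had 37.3 and 33.8 CPM with auxin and 59.6 and 54.9 CPM without (log2 fold change −0.69, SE 0.08, edgeR adjusted p = 0.000195). E2f4, the E2F member of the repressive MuvB complex called DREAM, had 187 and 183 CPM with auxin and 244 and 251 CPM without (log2 fold change −0.42, SE 0.05, edgeR adjusted p = 0.000189). Rb1, the retinoblastoma protein, was the gene that rose, with 30.7 and 28.7 CPM with auxin and 23.7 and 23.9 CPM without (log2 fold change 0.32, SE 0.09, edgeR adjusted p = 0.0253). Rb1 lost its call without no auxin replicate 1 (edgeR adjusted p = 0.0899) or replicate 2 (0.0692) and without auxin replicate 1 (0.118). Tfdp1, the partner of the E2F factors, was lower (−0.19, edgeR adjusted p = 0.0254), a call lost without no auxin replicate 1 (0.0790) or replicate 2 (0.110) and without auxin replicate 2 (0.165). Named after their values were seen, Mybl2 (B-Myb), the activating partner of MuvB, was lower (−0.37, edgeR adjusted p = 0.000231), and Foxm1 was not called (−0.16, edgeR adjusted p = 0.0584).

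Few H3K27me3 peaks were listed at the 5′ ends of the mitotic genes in the authors' peak files. The 5′ end here is that of the count table's annotation, not the RefSeq start used for the promoter windows. For Cdca8 these places lay 2394 bases apart. Within 1 kb of the 5′ end, 1 of the 37 genes had a ChIP-seq peak at 6 h (2.70%), against 6.92% of the genes that passed the same filter on low counts and 9.16% of all 32743 placed genes. At 12 h, 0 of the 37 had a CUT&RUN peak, against 7.66% of the genes that passed the filter and 13.3% of all placed genes. The ChIP-seq peak was that of Cdc25b (chromosome 2, 131187883 to 131188171, mm10), 289 bases wide with a fold enrichment of 3.25 and a −log10 q of 1.61 in the authors' values. It was not counted with a window of 500 bases or a −log10 q of at least 5. Ube2c was the other gene with a peak, at its 3′ end, listed by ChIP-seq (chromosome 2, 164778072 to 164778518) and by CUT&RUN (164778315 to 164779475). Each list came from 1 sample, so these shares have no replicate check. With only 37 genes, a difference from the shares of the other genes was not tested.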

How the data were processed

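RNA counts: the authors deposited raw fragment counts per gene name. Per the file headers, featureCounts 1.6.3 summed read pairs on exons by gene name in reverse-stranded mode, against mm10. The command shows no option that counts multi-mapping reads, so fragments shared by near-identical copies were left out. Among the tools, STAR 2.6.1d, Bowtie2 2.4.1 and MACS2 2.1.1 are named in the submitters' processing notes. The authors deposited broad peaks of 1 sample each, with their fold enrichment, score, and p-values and q-values as −log10. For the peaks, depth is unknown, and neither control nor cutoff is named in the sources used.

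The test was that of edgeR 4.0.16 under R 4.3.3, a two-sided quasi-likelihood F test of auxin against no auxin. It used TMM factors and the default expression filter, with Benjamini-Hochberg adjustment over 13522 genes and a threshold of 0.05. The procedure was checked on simulated counts, but its recovery of changes as small as most of those called here is not given. Standard errors were taken as |log2 fold change| divided by √F. Alternatives were RLE, upper-quartile and no factors, a filter of at least 1 read, DESeq2 1.42.0, a replicate block and leaving out each library. The members, lists and tests were chosen with earlier results of these data known. Per role, the 3 called genes of largest absolute change and every gene not called or higher were given in full. From each wider list, the 2 lowest and the 2 highest called genes were named. Separate cultures are not stated for the replicates, so the p-values reflect spread among these libraries alone, possibly technical. The listed precision reflects 2 libraries a group.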

Additional observations from a re-analysis of the deposited data

How the results depend on the processing

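Of the 29 genes called lower, 20 kept the call in all 10 alternatives. With library totals, Ccnb2, Cdk1, Mad2l1, Cenpe, Nusap1, Kif23, Prc1, Ect2 and Racgap1 were not called (edgeR adjusted p from 0.0625 to 0.328), and Ccnb2, Cdk1 and Mad2l1 were also not called with upper-quartile factors or DESeq2. The count was 29 with RLE factors, 26 with upper-quartile factors, 20 with library totals, 31 with the filter of at least 1 read, 26 with DESeq2 and 24 to 28 when 1 library was left out. The median log2 fold change was −0.29 with RLE factors, −0.26 with upper-quartile factors, −0.19 with library totals, −0.29 with the filter of at least 1 read, −0.30 with DESeq2 and −0.29 to −0.27 when 1 library was left out. The gene called higher, Pttg1, was not called by DESeq2 (0 genes, and 0 at an unadjusted p under 0.05), and the count was 0 to 1 when 1 library was left out. At an unadjusted p under 0.05, 1 gene was higher in each of those fits except that without no auxin replicate 1, where it was 0. The log2 fold change of Anln was positive with upper-quartile factors (0.0063) and library totals (0.074), and it ran from −0.051 to 0.0094 when 1 library was left out, positive without auxin replicate 2. On the wider list, 21 genes were lower with library totals, and 33 to 51 when 1 library was left out. There, DESeq2 called 0 higher (2 at an unadjusted p under 0.05), against 0 to 3 when 1 library was left out. Over all genes, library totals gave 988 lower and 2735 higher, DESeq2 gave 881 higher, and 1257 to 1914 were lower and 1225 to 1705 higher when 1 library was left out. The cause of these changes was not tested.

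Replicate numbers were not shown to pair the libraries: deviations of same-numbered libraries correlated at 0.227 across genes, with 2 pairs and no label of a shared batch. With a replicate block, 33 of the 37 genes were lower (Bub1, Ndc80, Hmmr and Cdc20 in addition), 1 higher, the median was −0.29, the wider list had 79 lower and 5 higher, and all genes had 3177 lower and 2972 higher. The Cdc25b peak was not counted with a window of 500 bases (0 genes) or a −log10 q of at least 5 (0 genes). In the shorter promoter window, 23 genes held a CHR motif and 22 a CCAAT box. Depth limits Cdc25b, Cdc25c and Pttg1 most.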
